A study of Mus musculus with 6 samples.

Results

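The extracellular matrix of the pituitary was followed through 50 genes that encode collagens, laminins, proteoglycans, elastic fibre proteins, matricellular proteins, matrix proteases with their inhibitors, and the PDGF receptors of matrix-forming cells. They were found by the RefSeq accessions that the arrays' design gives to its probes. By that rule 49 of the 50 genes had at least 1 probe (68 probes among the 55681 on an array). The exception was Col12a1, which encodes a collagen of fibril surfaces. Signal well above background on at least 3 of the 6 arrays was found for 47 genes, and these were tested among 26886 genes and features. Col5a2, a chain of collagen V, had its 1 probe well above background on 1 WT array and on 0 KO arrays. Tnc, which encodes tenascin C, had 2 probes, of which 1 was well above background on 1 WT array and the other on none. No fold change is given for these 3 genes.

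Pituitaries came from virgin female mice, 8 weeks old, on a C57BL6 background. The 3 KO animals were Jmjd2a-/- and the 3 WT animals were their Jmjd2a+/+ littermates. All 6 had been exposed to soiled bedding of a stud male, which activates the oestrous cycle (the Whitten effect), and were killed 24 h later. The product of Jmjd2a (Kdm4a in current nomenclature) is an enzyme that demethylates lysines of histone H3. The sources used here do not give the deleted part of the gene or the cells in which it is deleted. Each gland came from 1 animal and was hybridised to 1 one-colour array, and no group contains repeated measurements of an animal.

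Collagens are helices of intertwined chains. Fibrillar collagens build the tension-bearing fibres of connective tissue, whereas collagen IV and laminins form the sheet-like networks of basement membranes, which nidogens and perlecan link together. In the pituitary the hormone-producing cells lie in cords bounded by basement membranes, next to a dense bed of fenestrated capillaries with their pericytes and with fibroblasts of the capsule and stroma. Small proteoglycans such as decorin coat and space the fibrils, lysyl oxidases crosslink them, and metalloproteinases and TIMPs set the rate at which matrix is degraded.

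The 6 arrays shared 1 slide and 1 scan. The 75th percentile of an array's spot signal, to which all values below are relative, lay between 171.3 (WT 1) and 313 intensity units (WT 2). Between 34634 (KO 2) and 40567 (WT 2) probes per array were well above background. With its brighter probe Kdm4a itself read 1.96 in WT (SD 0.15) and 1.34 in KO (SD 0.13; n = 3 arrays each), without overlap (exact two-sided permutation p = 0.1, the smallest possible for 3 against 3). Its other probe, above background on 2 arrays, did not separate the groups (exact permutation p = 0.9). Whether either probe lies in the deleted part is not known, which limits this check. All 7 pituitary hormone genes examined (Gh, Prl, Pomc, Cga, Lhb, Fshb and Tshb) were well above background on all 6 arrays. The median deviation of these 7 genes from their own means was 0.47, -0.32 and 0.18 on WT 1, 2 and 3. On KO 1, 2 and 3 it was -0.06, -0.03 and -0.21. Values are log2 signals with the 75th percentile of the array at 0, and fold changes are log2 differences of KO minus WT with the standard error of limma, n = 3 per group. The level of a probe depends on its sequence as well as on the transcript, so levels are compared only within a probe.

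None of the 47 genes passed limma's adjusted p under 0.05, as was the case for all 26886 genes and features (0 called, 0%). The lowest adjusted p of a matrix gene was 0.224, for Fbln1. At an unadjusted p under 0.05 there were 9 matrix genes (19.1%), against 12.8% of all genes and features. Col18a1 and Mmp14 were the 2 on the higher side (background 3.89%), and Fbln1, Ogn, Col1a1, Eln, Dcn, Pdgfra and Col8a1 the 7 on the lower side (background 8.93%). The 3 KO and the 3 WT values did not overlap for 13 matrix genes (27.7%), against 20.6% of all. Of these 13, 5 were higher in KO (Col18a1, Mmp14, Timp2, Timp3 and Postn, background 7.14%) and 8 were lower (Fbln1, Ogn, Col1a1, Eln, Dcn, Pdgfra, Hspg2 and Nid1, background 13.5%).

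The median log2 fold change of the 47 matrix genes was -0.08, the same as that of all genes and features to 2 decimals. Below 0 were 28 of the 47 (all genes and features, 61.0%), and 24 of the 47 lay below the median of all genes. Differences of 0.5 or more in size were measured for 7 matrix genes, against 11.8% of all. With median centring in place of the 75th percentile, 18 of the 47 were below 0, and the median of all genes moved from -0.08 to 0.09. Signs of values close to 0 are therefore tied to the scaling. In whole glands, fewer cells of a type and less RNA per cell cannot be told apart.

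**Figure D1:**
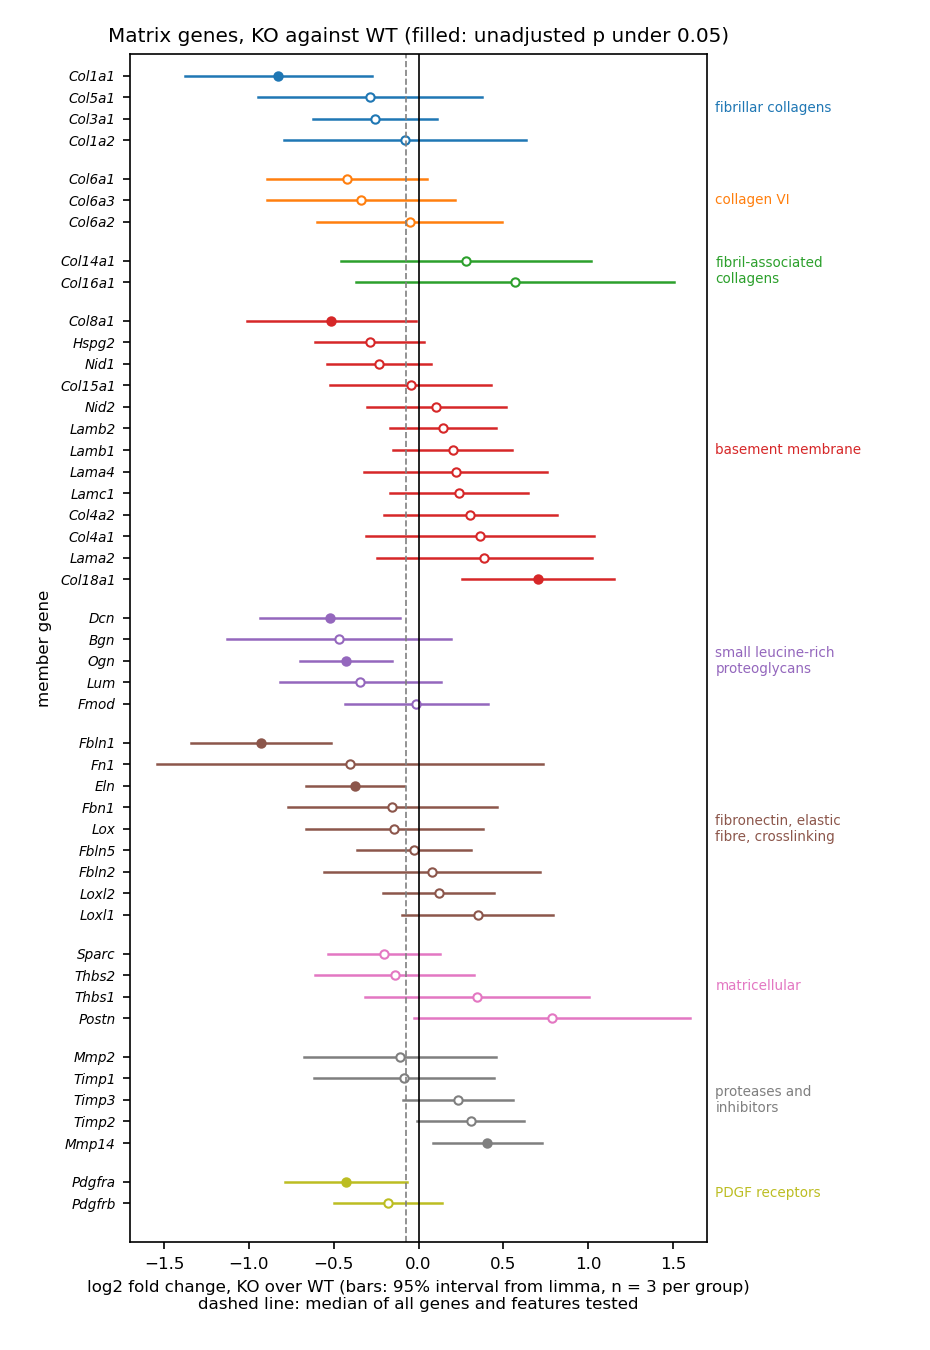
Log2 fold change of KO over WT for the 47 matrix genes tested, grouped by role, with 95% intervals from limma (n = 3 per group); filled points mark an unadjusted p under 0.05 and the dashed line marks the median of all genes and features tested, -0.08. With this scaling the small leucine-rich proteoglycans and fibrillar collagens all lie below 0 (with median or quantile scaling, all but 1 of each), and 9 of 13 basement membrane genes lie above it (10 with either of these).

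Among fibrillar collagens, all 4 tested genes had values below 0 (3 with median centring, quantile normalization or the authors' value table, where Col1a2 was above), with a median log2 fold change of -0.27. The median was -0.48 without WT 1, -0.16 without WT 2 and -0.17 without WT 3. Col1a1, which encodes the more abundant chain of the collagen I molecule, had the largest log2 fold change of the 4. It read 1.78, 1.76 and 2.20 on WT arrays 1, 2 and 3 and 1.55, 0.90 and 0.81 on KO arrays 1, 2 and 3. Every KO array was thus below every WT array, with KO 1 nearest to WT. The log2 fold change was -0.83 ± 0.23 (adjusted p = 0.309), and it ran from -1.06 to -0.67 over 19 alternatives of processing and left-out arrays.

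The partner chain of Col1a1 in the same molecule, Col1a2, showed no such separation. Col1a2 read 5.67, 6.53 and 6.42 in WT and 6.39, 5.62 and 6.37 in KO. One array of each group, WT 1 and KO 2, was about as low as the other, and the remaining 4 arrays lay together. Its log2 fold change was -0.08 ± 0.30 (adjusted p = 0.919), with the sign turned in 7 of 19 alternatives, from -0.35 to 0.34. The difference between the 2 chains was not tested.

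Col3a1, the homotrimeric collagen of distensible tissue, read 0.50, 0.68 and 0.90 in WT and 0.57, 0.27 and 0.47 in KO. These ranges overlapped, at a log2 fold change of -0.26 ± 0.15 (adjusted p = 0.493). Col5a1, whose product nucleates collagen fibrils, had a log2 fold change of -0.28 ± 0.28 with WT values from -2.82 to -1.74 that enclosed all KO values.

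The 3 chains of collagen VI, which forms beaded microfibrils around cells, were also all below 0 (2 of 3 with median centring; median -0.34), with overlapping groups. Col6a1 read 0.93, 0.79 and 1.28 in WT and 0.90, 0.47 and 0.36 in KO, where KO 1 stood within the WT range and the other KO arrays below it. Its log2 fold change was -0.42 ± 0.20 (adjusted p = 0.417). Col6a3 read -2.54, -1.87 and -1.63 in WT and -2.31, -2.40 and -2.35 in KO, with WT 1 below and the other WT arrays above all KO arrays. Its difference of -0.34 ± 0.23 was -0.60 without WT 1 and -0.15 without WT 3, which is also the median of the 3 chains without WT 3. Col6a2 gave -0.05 ± 0.23, whose sign turned with median centring. Summarised by array, the median deviation of the 3 chains from their own means was highest on WT 3 (0.49) and lowest on KO 3 (-0.30).

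Both tested fibril-associated collagens were above 0 with their brightest probes, but their probes disagreed. Col16a1 read 1.22, 2.91 and 2.06 in WT and 2.53, 2.52 and 2.84 in KO with its brightest probe. The WT arrays spread over a wider range than the KO arrays and enclosed them. That probe gave 0.57 ± 0.40, and its other probes gave 0.40 ± 0.32 and -0.33 ± 0.27. Col14a1, whose product binds fibril surfaces, read -1.07, -0.09 and -1.18 in WT and -0.27, -0.81 and -0.44 in KO with its brighter probe. WT 2 was the highest array and the other WT arrays were the lowest. That probe gave 0.28 ± 0.31 and the other -0.17 ± 0.23. The median of both genes was 0.42, and it was 0.14 without WT 1 and 0.81 without WT 2.

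Basement membrane genes had a median log2 fold change of 0.20, with 4 of 13 below 0 (3 with median centring or quantile normalization). Col18a1, the source of the angiogenesis inhibitor endostatin and a proteoglycan of vascular and epithelial basement membranes, was on the higher side of this group. It read 0.17, 0.58 and 0.09 in WT and 0.95, 0.76 and 1.24 in KO. No KO array reached down to the highest WT array, WT 2. The log2 fold change was 0.70 ± 0.19 (adjusted p = 0.296). A second Col18a1 probe read 0.10, 0.79 and 0.43 in WT and 0.69, 0.57 and 0.89 in KO, with overlap, and gave 0.28 ± 0.20. Without KO 3 this second probe became the brighter one, and the value for the gene was then 0.19.

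The chains of the ubiquitous collagen IV molecule, Col4a1 and Col4a2, are transcribed in opposite directions from neighbouring starts. By the starts used here each gene runs past the start of the other. The stretch between the starts is shown because it lies within both transcripts. In the RefSeq promoter table (GRCm38.p6, chr8:11312801-11312830, plus strand) the Col4a2 start on the plus strand and the Col4a1 start on the minus strand bound the 22 bases in capitals.
Col4a1 and Col4a2 starts: cggcAGTGCGCGGGCGGCGTCTCCAAgggg
The 300-base windows of both genes contain CCAAT and GGGCGG on one strand or the other, and neither contains TATAAA. None of these 3 motifs contains another. Of 39 windows found for 33 matrix genes, 24 (61.5%) held GGGCGG, against 35.7% of all 32851 windows in the table. The shares were 35.9% against 37.4% for CCAAT and 15.4% against 13.6% for TATAAA. A match is a string in a window and says nothing of binding.

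Both collagen IV chains were low on WT 1. Col4a1 read -0.41, 0.68 and 0.47 in WT and 0.68, 0.45 and 0.70 in KO. Col4a2 read -0.13, 0.55 and 0.53 in WT and 0.75, 0.41 and 0.70 in KO. In each case WT 1 lay below the other 5 arrays, which lay close together. Log2 fold changes were 0.36 ± 0.28 and 0.30 ± 0.22 (adjusted p = 0.580 and 0.548), and without WT 1 they were 0.03 and 0.08.

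The same array was low across the basement membrane group. Its median deviation from the genes' own means was -0.39, against -0.06 to 0.16 on the other 5 arrays, and without WT 1 the median log2 fold change of the group was 0.05. Lama2, a laminin chain of muscle and nerve basement membranes, read -0.91, 0.18 and -0.28 in WT and -0.05, 0.03 and 0.18 in KO, with its lowest value on WT 1. Its log2 fold change was 0.39 ± 0.27, and 0.10 without WT 1. Lama4 (0.22 ± 0.23), the laminin chain of endothelial basement membranes, Lamb1 (0.20 ± 0.15), Lamb2 (0.14 ± 0.13) and Lamc1 (0.24 ± 0.17), the partner chains of laminin trimers, also had values above 0 with overlapping groups.

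A few genes of the same sheet were below 0. Hspg2, which encodes the heparan sulphate proteoglycan perlecan, read 1.92, 1.84 and 1.99 in WT and 1.78, 1.68 and 1.44 in KO, so that the groups were separate by a small margin. The log2 fold change was -0.29 ± 0.14 (adjusted p = 0.417), and the second probe gave -0.61 ± 0.28. Nid1, a nidogen that ties laminin to collagen IV, read 0.76, 0.87 and 0.75 in WT and 0.73, 0.51 and 0.44 in KO. The highest KO array lay just below the lowest WT array, and the log2 fold change was -0.23 ± 0.13. The related Nid2 had a value of 0.11 ± 0.17. Col8a1, a short-chain collagen of vessel walls and of Descemet's membrane, read -3.27, -3.07 and -3.57 in WT and -3.57, -3.69 and -4.19 in KO. KO 1 and WT 3 met at the same value, and the log2 fold change was -0.51 ± 0.21 (adjusted p = 0.381). Col15a1 belongs to the same group and had overlapping groups.

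**Figure D2:**
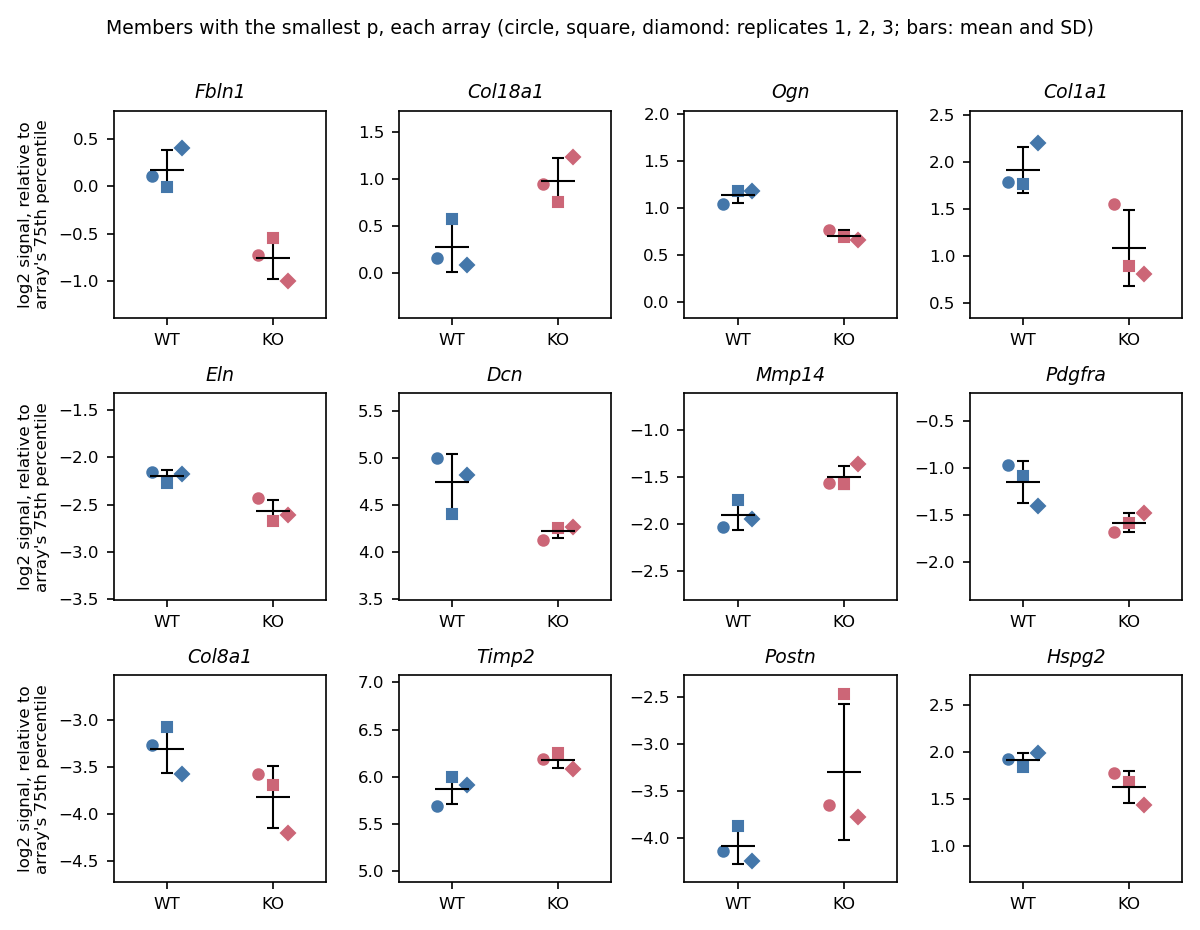
Log2 signal relative to the array's 75th percentile for the 12 matrix genes with the smallest unadjusted p, one symbol per array (circle, square and diamond for replicates 1, 2 and 3) with mean and SD; the vertical span is the same in every panel, and its position differs. Fbln1 KO arrays lie at -0.55 or below and WT arrays at -0.0035 or above, and Postn has 1 KO array at -2.47 apart from the other 5.

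Small leucine-rich proteoglycans, which bind collagen fibrils, were below 0 in all 5 cases (4 with median centring, quantile normalization or the authors' value table; median -0.43, range -0.52 to -0.01). Dcn encodes decorin, which limits fibril width. It read 4.99, 4.40 and 4.82 in WT and 4.13, 4.26 and 4.26 in KO. The KO arrays lay close together and below all WT arrays. The log2 fold change was -0.52 ± 0.17 (adjusted p = 0.339), which ran from -0.71 to -0.36 over the alternatives.

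Ogn, which encodes osteoglycin (mimecan), read 1.04, 1.19 and 1.18 in WT and 0.77, 0.70 and 0.66 in KO. Both groups were tight and did not overlap, at -0.43 ± 0.12 (adjusted p = 0.297). Bgn, for biglycan, read 3.31, 2.22 and 2.81 in WT and 2.41, 2.45 and 2.06 in KO. WT 1 was the highest array and WT 2 lay within the KO range, and the log2 fold change was -0.47 ± 0.28. Lum, for lumican, gave -0.34 ± 0.20 with its highest value, 1.72, again on WT 1. Without WT 1 the values of Bgn and Lum were -0.21 and -0.16, and the median of the group was -0.21. Fmod, for fibromodulin, belongs to this group and had overlapping groups.

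Elastic fibre and adhesion proteins held the matrix gene with the largest absolute log2 fold change and the smallest p of the 47 tested. Fbln1 encodes fibulin 1, a glycoprotein of basement membranes and elastic fibres that binds fibronectin and laminin. Its brighter probe read 0.11, -0.0035 and 0.41 in WT and -0.73, -0.55 and -1.001 in KO. The mean KO level was 52.5% of the WT level, with a 95% interval from 39.5% to 69.8%, which is -0.93 ± 0.17 on the log2 scale. A second probe of the gene read -1.06, -0.67 and -0.76 in WT and -2.01, -1.77 and -1.62 in KO and gave -0.97 ± 0.17. With both probes the lowest WT array lay above the highest KO array. The adjusted p was 0.224 (0.0964 to 0.581 over 19 alternatives), and the fold change kept its sign in all 19, from -1.12 to -0.71.

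Eln, the gene of elastin, read -2.15, -2.27 and -2.17 in WT and -2.43, -2.67 and -2.61 in KO, at -0.37 ± 0.12 (adjusted p = 0.337). The groups did not overlap, and the authors' value table gave a smaller value of -0.15. Fn1, for fibronectin, read -1.30, -0.38 and 0.24 in WT and -0.24, -0.72 and -1.68 in KO. Either group covered a wide range, and the log2 fold change was -0.40 ± 0.48. This value was -0.81 without WT 1, -0.04 without WT 3 and -0.0039 without KO 3. Fbn1, which encodes the microfibril protein fibrillin 1, gave -0.15 ± 0.26, and a value above 0 with median centring.

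The lysyl oxidase relatives Loxl1 and Loxl2, which crosslink elastin and collagen, were above 0. Loxl1 read 2.82, 2.31 and 2.23 in WT and 2.66, 2.81 and 2.94 in KO. WT 1 lay among the KO arrays, and the log2 fold change was 0.35 ± 0.19 (adjusted p = 0.459), with 0.27 from a second probe. Loxl2 gave 0.12 ± 0.14 with its brightest probe, and its 3 probes gave both signs. Fbln2, Fbln5 and Lox complete this group of 9 genes, whose median was -0.14 with 6 below 0. With median centring 3 were below 0 and the median was 0.02, and with an array left out the median ran from -0.35 (without WT 1) to 0.000321 (without WT 3), with -0.03 without WT 2.

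Matricellular proteins, which modulate contacts between cells and matrix without building fibres, lay on both sides of 0 (2 of 4 below 0, median 0.10; 0 of 4 below with quantile normalization). The median turned to -0.06 without WT 1 and to -0.05 without KO 1, and it was 0.22 without WT 3 or without KO 3. Postn, for periostin, read -4.14, -3.87 and -4.24 in WT and -3.65, -2.47 and -3.78 in KO. All KO arrays were above all WT arrays, and KO 2 stood far above the other 2 KO arrays. The log2 fold change of 0.79 ± 0.34 (adjusted p = 0.395) was 0.37 without KO 2 and 0.09 with normexp background correction. Sparc, for osteonectin, a collagen-binding protein, read 6.22, 6.53 and 6.51 in WT and 6.33, 6.10 and 6.22 in KO, at -0.20 ± 0.14, with the sign turned by quantile normalization. Thbs1, for thrombospondin 1, an activator of latent TGF-beta, gave 0.35 ± 0.28. Thbs2 overlapped between the groups.

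Matrix proteases and their inhibitors had a median of 0.23, with 2 of 5 below 0 (0 with median centring, 1 with quantile normalization). Mmp14 encodes the membrane-bound metalloproteinase that cleaves collagen and activates pro-MMP2. It read -2.03, -1.74 and -1.95 in WT and -1.57, -1.58 and -1.36 in KO. No array of one group entered the range of the other, and the log2 fold change was 0.41 ± 0.14 (adjusted p = 0.341), with 0.19 under normexp.

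Timp2, an inhibitor that also takes part in the activation of pro-MMP2 by MMP14, read 5.69, 5.997 and 5.91 in WT and 6.19, 6.26 and 6.08 in KO. Its 2 probes gave the same value, 0.31, with standard errors of 0.13, and neither probe's groups overlapped (adjusted p = 0.391 for the brighter). Timp3, the inhibitor bound to the matrix, read 3.10, 3.18 and 3.05 in WT and 3.22, 3.25 and 3.56 in KO, at 0.23 ± 0.14. The lowest KO array lay just above the highest WT array, and KO 3 was the highest. Without KO 3 the value of Timp3 was 0.13, and so was the median of the group. Mmp2 (-0.11 ± 0.24) and Timp1 (-0.09 ± 0.22) had values near 0 whose signs turned with the scaling.

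Of the PDGF receptors, which drive the growth of fibroblasts and pericytes, Pdgfra marks fibroblasts and Pdgfrb marks pericytes as well. Pdgfra read -0.97, -1.08 and -1.41 in WT and -1.68, -1.58 and -1.48 in KO, where the lowest WT array was just above the highest KO array. The log2 fold change was -0.43 ± 0.15 (adjusted p = 0.349). Pdgfrb read 0.44, 0.49 and 0.58 in WT and 0.51, 0.18 and 0.28 in KO, with overlap and a value of -0.18 ± 0.13.

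**Figure D3:**
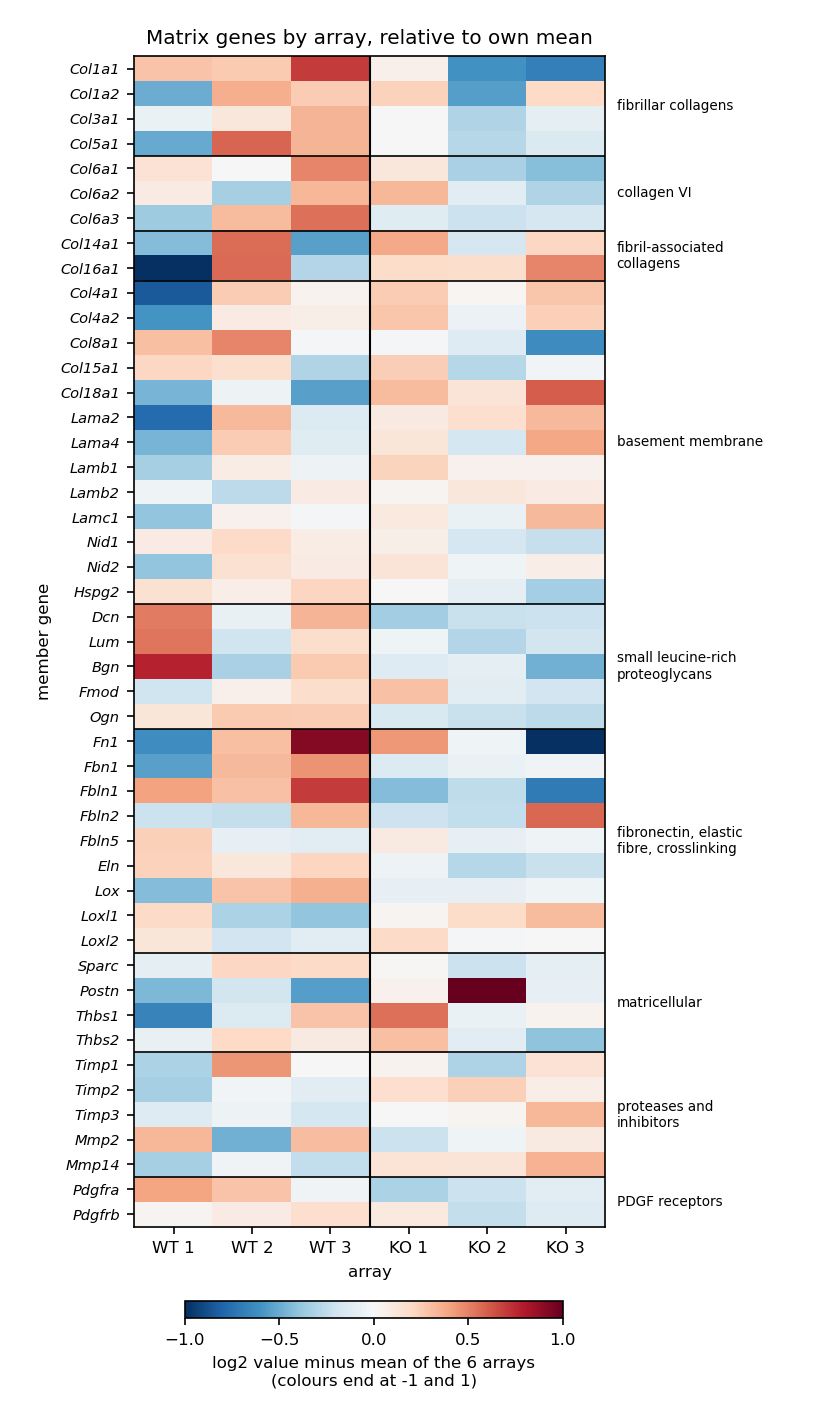
Each matrix gene's log2 value minus its own mean over the 6 arrays (colours from -1 to 1), with arrays in columns and genes ordered by role. WT 1 is the lowest array for 17 of 47 genes, most visibly among basement membrane genes, and KO 1 is the lowest for 2. Over all genes and features the shares are 18.1% for WT 1 and 17.6% for KO 1.

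High and low arrays were found in both genotypes. WT 1 was the lowest array for 17 of the 47 matrix genes, against 18.1% of all genes and features. WT 2 and WT 3 had 30 genes each above the genes' own means, KO 1 had 32, KO 3 had 21, WT 1 had 19 and KO 2 had 11. Over all genes and features these shares were 57.4%, 56% and 50.9% on WT 1, 2 and 3. On KO 1, 2 and 3 they were 45.6%, 44.4% and 41%. The median deviations were -0.13, 0.12 and 0.09 on the WT arrays and 0.06, -0.11 and -0.04 on the KO arrays, so each group held arrays on both sides of 0. The spread within a group was wider in WT, with a median SD of 0.26 against 0.17 in KO, and larger in WT for 72.3% of matrix genes. Over all genes and features the median SDs were 0.23 and 0.15, and the share was 69.7%. The genes outside the list whose values followed the median deviation of the matrix genes most closely were Popdc2 (r = 0.994), Mlip (0.985), Phf11a (0.984), Abca8b (0.978) and Hmx1 (0.978), as Pearson correlations over the 6 arrays among 16413 genes with a symbol. They were selected for this likeness among many, from arrays that share slide and scaling.

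Median marker levels of several cell types differed between arrays along with some of these groups, and their part in the results was not tested. Of 11 fibroblast markers tested, 9 were below 0 and 8 below the median of all genes, with a median of -0.37. Their median deviation lay between -0.01 and 0.19 on the WT arrays and between -0.25 and -0.02 on the KO arrays. Over all genes and features it lay between 0.0052 and 0.05 and between -0.05 and -0.02. Twist2, a transcription factor gene of mesenchyme, read -1.53, -1.87 and -1.81 in WT and -2.59, -2.44 and -2.41 in KO, at -0.74 ± 0.14. The related Twist1 gave -0.84 ± 0.20 and Clec3b, for tetranectin, -0.55 ± 0.16. Prrx1, another mesenchymal transcription factor gene, went the other way without overlap, at 0.26 ± 0.12, while the collagen-processing enhancer gene Pcolce gave 0.08 ± 0.12. Dpt, for dermatopontin, a defining marker, was well above background on none of the arrays. Dpt, Pcolce and Mfap5 of this list also belong to the wider matrix list given below.

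Markers of pericytes and smooth muscle lay on both sides of 0, within either cell type as well. Among genes typical of pericytes, Rgs5 (0.62 ± 0.24), Abcc9 (0.48 ± 0.16) and Vtn (0.37 ± 0.16) had KO values above all WT values. Kcnj8 gave 0.21 ± 0.17, Notch3 0.03 ± 0.11, Higd1b -0.02 ± 0.17 and Cspg4 -0.10 ± 0.12. Among genes of contractile cells, Tagln (-0.66 ± 0.18) had KO values below all WT values, Acta2 gave -0.43 ± 0.20, Des -0.38 ± 0.20 and Myh11 0.59 ± 0.76. Of the 11 tested, 5 were below 0 and the median was 0.03, with deviations of -0.17 to 0.05 in WT and 0.02 to 0.14 in KO. Endothelial markers had 4 of 12 below 0 and a median of 0.08, with deviations from -0.23 to 0.10 in WT and from -0.14 to 0.18 in KO. Folliculostellate and stem cell markers had 9 of 10 below 0 (8 below the median of all genes) and a median of -0.20. Among them 0 had an unadjusted p under 0.05. Their median deviations did not overlap, from 0.03 to 0.10 in WT and from -0.14 to -0.04 in KO. Neither did those of all genes and features, from 0.0052 to 0.05 in WT and from -0.05 to -0.02 in KO. Red blood cell markers had 6 of 6 below 0 and a median of -0.38, with a range in KO (-0.90 to 0.74) that enclosed the WT range (-0.03 to 0.45). Pituicyte and neural markers had 7 of 10 below 0 (median -0.18) and macrophage markers 3 of 9 (median 0.11), each with overlapping ranges of WT and KO arrays.

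Bone and meninges, tissues that a dissected pituitary could carry along, were looked for because Col1a1 and the proteoglycans are abundant there. Of the bone and cartilage markers, Ibsp, Dmp1 and Sost were well above background on none of the arrays, and Bglap had no probe. The 4 tested were well above background on all 6 arrays and had a median of -0.20. They were Col2a1 (-0.55 ± 0.30), Runx2 (-0.27 ± 0.58), Acan (-0.14 ± 0.18) and Sp7 (0.13 ± 0.32). Their median deviation was 0.42, -0.16 and -0.47 on KO 1, 2 and 3, a range that enclosed that of the WT arrays (0.0033 to 0.18). Meningeal markers had 6 of 7 below 0, 5 of them below the median of all genes, and a median of -0.24, from -0.21 to 0.45 in WT and from -0.34 to 0.06 in KO. Slc6a13, a transporter gene of leptomeningeal cells, was the one with an unadjusted p under 0.05, at -0.996 ± 0.32. Schwann cell and neutrophil markers were highest on WT 3 (median deviations of 1.05 and 2.32). Col1a1, Fn1 and the brighter Fbln1 probe were also highest there, and the second Fbln1 probe was highest on WT 2. Neutrophil markers had 7 of 7 below 0 (median -1.10), with 0 at an unadjusted p under 0.05. Their deviations did not overlap, from -0.28 to 2.32 in WT and from -0.70 to -0.33 in KO. Schwann cell markers had 8 of 10 below 0 (median -0.32), from -0.39 to 1.05 in WT and from -0.29 to -0.05 in KO. Without WT 3 the log2 fold change of Col1a1 was -0.69 and that of Fbln1 was -0.81.

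**Figure D4:**
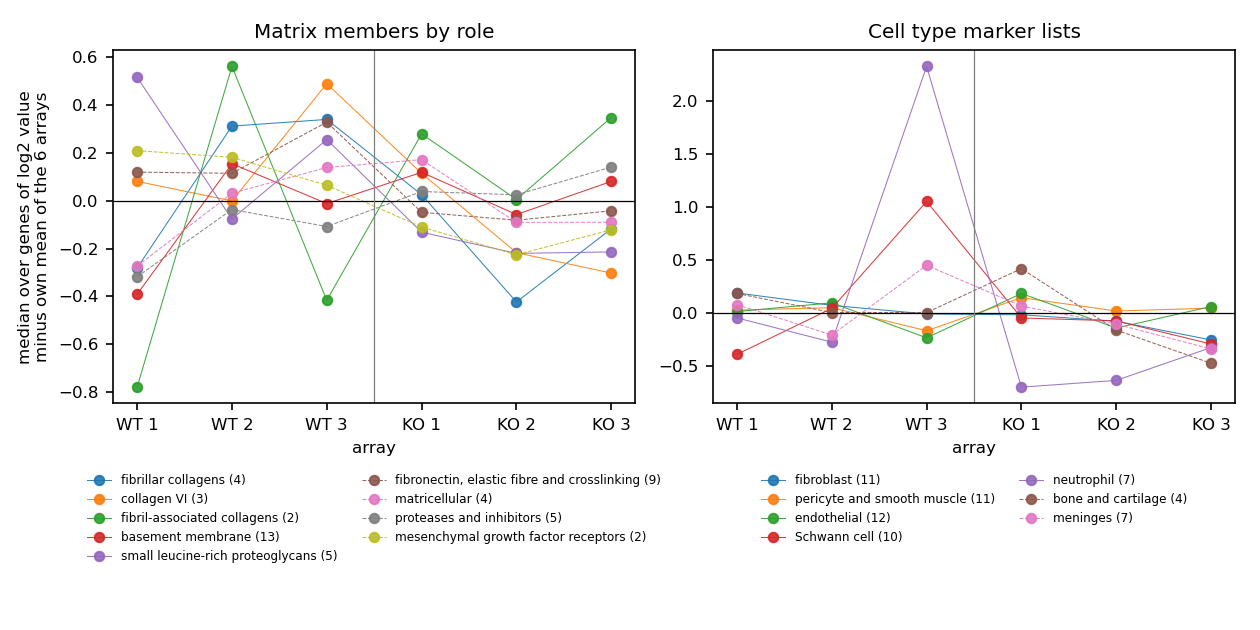
Median over genes of the log2 value minus the gene's own mean of the 6 arrays, for the role groups of matrix genes (left) and for marker lists of cell types (right), with the number of genes in brackets; thin lines join the values of 1 list and carry no order, and the panels differ in vertical scale. Basement membrane genes are low on WT 1 (-0.39), small leucine-rich proteoglycans are high there (0.52), and neutrophil markers are high on WT 3 (2.32).

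The wider matrix pathway was covered by a list of 164 further genes, of which 138 were tested. None was called by limma, and 9 had an unadjusted p under 0.05 (6.52%, 5 higher and 4 lower), below the 12.8% of all genes and features. The median was 0.03. Enzymes that hydroxylate, fold and trim collagen chains gave 0 of 19 at an unadjusted p under 0.05, with all values between -0.31 and 0.24. The genes with the smallest p lay elsewhere in the list. Ccn2, which encodes connective tissue growth factor, a target of TGF-beta and YAP, read 1.01, 1.44 and 1.14 in WT and 1.91, 1.89 and 2.13 in KO. These groups were separate, at 0.78 ± 0.16 (adjusted p = 0.226).

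Col26a1, another collagen gene, had WT values from -2.07 to -1.22 and KO values from -2.97 to -2.56, a difference of -1.21 ± 0.24 (adjusted p = 0.226). Col11a2, a fibrillar collagen chain best known from cartilage, gave -0.70 ± 0.18 (adjusted p = 0.291). Itga8, an integrin chain of mesenchymal and contractile cells, gave 0.43 ± 0.11 and Fras1, a protein of epithelial basement membranes, 0.73 ± 0.20. The groups were separate for all 5 genes, which were named because their p was the smallest. In the whole list the groups were separate for 21 of 138 genes (15.2%), against 20.6% of all genes and features.

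**Figure D5:**
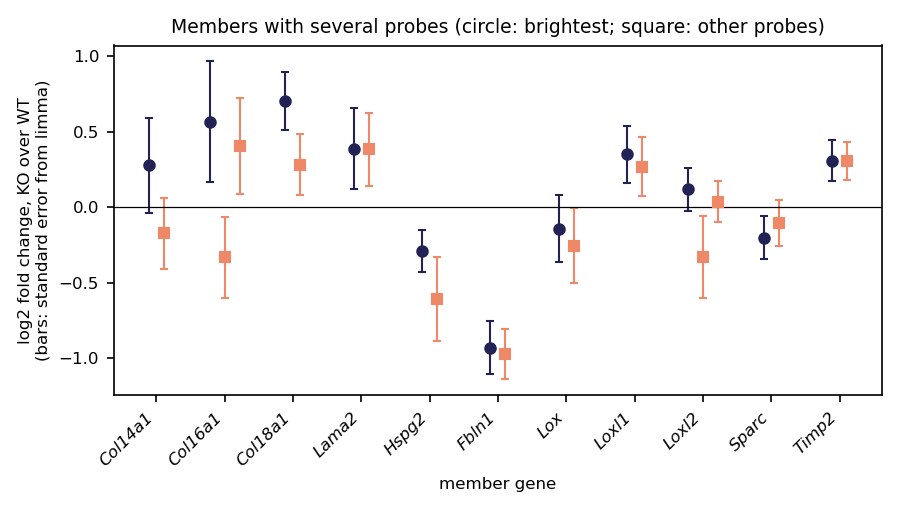
Log2 fold change of KO over WT with limma's standard error for every probe that passed the filter, in the 11 matrix genes with more than 1 such probe; circles are the brightest probe of a gene and squares the others. The 2 probes of Fbln1 and of Timp2 coincide, whereas those of Col14a1, Col16a1 and Loxl2 lie on both sides of 0.

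Probes of the same gene gave a check within the arrays. Of the 11 matrix genes with at least 2 probes that passed the filter, 8 had all probes on the same side of 0. The closest pairs were those of Timp2 (0.31 for both), Lama2 (0.38 and 0.39) and Fbln1 (-0.93 and -0.97). Probes of Col16a1 spread furthest, from -0.33 to 0.57.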

How the data were processed

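Pituitary RNA of 3 KO and 3 WT mice was labelled with Cy3 and hybridised to one-colour Agilent arrays, per the labels. Spot intensity (the deposited gProcessedSignal column) was written by Agilent Feature Extraction 11.0.1.1 with background subtracted and not scaled between arrays, per the file headers. A table of log2 values for 29154 spots, deposited by the authors, served as an alternative. Limma is named in the submitters' processing notes, and the sources used here do not give the authors' normalization. In R 4.3.3 with limma 3.58.1 (tables read with data.table, version 1.17.8), control and outlier spots were left out, log2 intensities were scaled to each array's 75th percentile of non-control spots, spots were averaged by probe, and a probe was kept if at least 3 arrays had it well above background (36739 of 55681). The brightest probe stood for a gene. RefSeq names of GRCm38.p6 were given to 27656 probes of 20972 genes. KO was compared with WT by lmFit and eBayes, two-sided, with Benjamini-Hochberg adjustment over all 26886 genes and features. The Kdm4a probes were compared by an exact permutation test.

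The members, lists and tests were chosen with earlier results of these data known. Values per array are given for the 15 members with the smallest p, at least 2 per role group, and up to 5 genes of the pathway list or of a marker list. Other named genes were chosen after their values were seen. The limma fit was tested on simulated data with known differences added, and the averaging of spots by probe was checked separately. With 3 arrays per group, the number of arrays limits the precision.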

Additional observations from a re-analysis of the deposited data

How the results depend on the processing

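Over 19 alternatives (background correction, scaling, the authors' table, filters, probe choice, variance model, blocks, slide row 1 alone, each array left out) limma called 0 matrix genes in every one, and 32 of the 47 kept their sign in all. Over all genes and features 24 were called with normexp, 16 with median centring, 27 in the authors' table, 11 with the filter on all arrays, 27 with a variance trend and 0 to 1 with an array left out (1 without WT 1). Matrix genes at an unadjusted p under 0.05 numbered 6 to 15 with an array left out: 15 without WT 2, when 21.1% of all genes passed, and 6 without KO 2 or without KO 3 (8.04% and 7.40% of all). Median centring gave 18 matrix genes below 0, a median of 0.084 for matrix genes (0.0522 with quantile normalization) and of 0.187 for the pathway list.

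The sign turned in at least 1 alternative for 15 matrix genes. Values that turned included those of Col1a2 (0.135 with quantile normalization, 0.084 with median centring, 0.0969 in the authors' table, 0.338 in slide row 1 alone, -0.345 to 0.177 with an array left out), Sparc (0.0363 with quantile normalization, 0.0655 in the authors' table), Mmp2 (0.118 with quantile normalization, 0.052 with median centring, -0.377 to 0.0281 with an array left out) and Timp1 (0.0769 with median centring, 0.247 in slide row 1 alone, -0.265 to 0.115 with an array left out). Further ones were Col6a2 (0.109 with median centring, -0.233 to 0.0986 with an array left out), Fbn1 (0.008 and -0.462 to 0.032 likewise), Loxl2 (-0.0574 as the mean of its probes), Col5a1 (0.00733 in slide row 1 alone) and Nid2 (-0.0659 to 0.209 with an array left out). The sign was also kept in only some of the alternatives for Fmod (11 of 19, from -0.16 to 0.15), Col15a1 (12 of 19, -0.207 to 0.155), Fbln2 (14 of 19, -0.186 to 0.266), Fbln5 (16 of 19, -0.0896 to 0.134), Lox (15 of 18, -0.392 to 0.071) and Thbs2 (15 of 18, -0.325 to 0.0559). The cause was not tested. Postn, Mmp2, Col8a1, Lox and Thbs2 were not analysed in the authors' table.

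Deviations of WT and KO arrays with the same replicate number correlated at r = 0.15, -0.179 and -0.0835. With different numbers r ran from -0.14 to 0.21. The correlations of each array with the other group nearly cancelled, so these few values cannot decide whether the numbers pair the animals. With the replicate number as a block, 0 genes and features were called, and 9 matrix genes had an unadjusted p under 0.05 (10.7% of all), as without it. With slide row as a block 10 did (10.9% of all).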
